A study of Mus musculus with 4 samples.

Results

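The MHC class II genes described here are the 7 genes H2-Aa, H2-Ab1, H2-Eb1, Cd74, H2-DMa, H2-DMb1 and Ciita. They were taken by symbol from the 19737 genes of a deposited single-cell count matrix of mouse brain myeloid cells, and all 7 passed the filter on low counts that left 14058 genes for testing. Their positions on GRCm38 put H2-DMa (chr17:34119541-34139101), H2-DMb1 (chr17:34153072-34160230), H2-Ab1 (chr17:34257689-34269419), H2-Aa (chr17:34282744-34287823, minus strand) and H2-Eb1 (chr17:34305867-34316674) in a single stretch of chromosome 17. Cd74 lies at chr18:60803848-60812652 and Ciita at chr16:10480059-10528418.

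The data came from 20 mice in 5 groups of 4, killed 24 h after an intravenous antibody dose of 10 mg per kg. All mice were homozygous for a knock-in of the human transferrin receptor apical domain (hTfR KI), which the ATV antibodies bind to cross into the brain. According to the paper, its mice are kept on the C57BL6J background. Which class II alleles these mice carry was not examined here. WT mice carried no further allele and received ATV:ISO or ATV:4D9, and AppSAA mice, homozygous for the APP-SAA amyloid knock-in at the mouse App locus, received ATV:ISO, 4D9 or ATV:4D9. 4D9 is an antibody to mouse TREM2, a receptor of microglia, and ATV:4D9 carries it on the transferrin receptor-binding backbone. The ATV arms had a human IgG1 Fc with the LALA changes that lower Fc receptor binding, while the 4D9 arm had LALAPG, so that arm differs from ATV:4D9 in more than the transport site. The isotype arm bears the label ATV-DNP02, and its identity with ATV:ISO is an inference from the labels. The study lists male mice aged 8 months, and 1 WT ATV:ISO mouse, that of pool 4, is recorded as female. Each of 4 CellPlex pools (CMO pools) held 1 mouse of every group, and a pool was sorted and captured together. The deposited texts disagree on the sort (CD11b alone or CD45 with CD11b) and on the tissue (cortex or cortex with hippocampus).

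MHC class II molecules present peptides from endocytosed proteins to CD4 T cells. The alpha chain H2-Aa pairs with the beta chain H2-Ab1, and the beta chain H2-Eb1 with an E alpha chain. The gene of the latter, H2-Ea, was not analysed, so a partner of H2-Eb1 was not measured here. Paired chains assemble around the invariant chain, Cd74, which fills their groove. The editor H2-DM, made of H2-DMa and H2-DMb1, then exchanges the remnant of Cd74 for peptide. The transactivator Ciita is recruited by factors bound at the X and Y boxes of these promoters. In brain, class II is low in resting microglia, is raised in reactive states and is constitutive in border macrophages and dendritic cells.

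The 74758 cells held 521 to 59993 UMIs each (median 11351), and a mouse contributed 2193 to 6126 cells and 17150296 to 102446549 UMIs. Depth differed between groups, with a mean of the mice's median UMIs per cell of 7566 in WT ATV:ISO, 15338 in WT ATV:4D9, 9339 in AppSAA ATV:ISO, 9741 in AppSAA 4D9 and 15523 in AppSAA ATV:4D9. Values are therefore given as CPM (the UMIs of a gene scaled to 1000000 UMIs of a mouse's summed cells), as UMIs per cell, and as the percent of cells with a UMI after each cell was thinned to 5000 UMIs, which left out 4309 shallower cells (11.0% in WT ATV:ISO, 2.52% in WT ATV:4D9, 6.76% in AppSAA ATV:ISO, 7.05% in AppSAA 4D9 and 3.57% in AppSAA ATV:4D9). Of 74212 barcode sequences, 543 were found in more than 1 pool. The cells carried microglial markers throughout: 5 of 5 genes (P2ry12, Tmem119, Sall1, Cx3cr1, Fcrls) were detected in every group, summing to 10426 to 12131 CPM in WT ATV:ISO mice and 4328 to 7465 CPM in the other mice. Markers of cells that use class II constitutively were low, with 5 border macrophage genes summing to 4.53 to 20.7 CPM, 7 dendritic cell genes to 2.16 to 5.76 CPM and 2 B cell genes to at most 0.701 CPM. Of markers of cells that do not use class II constitutively, 2 endothelial genes summed to 3.74 to 21.1 CPM, 3 neutrophil genes to 3.98 to 22.3 CPM, 4 genes of neurons and macroglia to 1.98 to 11.8 CPM, 3 monocyte genes to 1.53 to 8.18 CPM and 4 T and NK cell genes to at most 0.731 CPM. The endothelial genes were at 15.9 to 21.1 CPM in WT ATV:ISO mice and 3.74 to 10.5 CPM in the other mice, without overlap. No class of such cells was separated here, so the share of cells with a UMI from free RNA was not measured.

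Promoter stretches of 2 of the 3 classical chain genes, H2-Aa and H2-Eb1, are shown, since these are the classical chain genes for which a RefSeq promoter window was found. RefSeq promoter windows (GRCm38.p6, 250 bases before to 50 after a transcript start) were found for 4 of the 7 members, in 5 windows. They were searched on both strands for an X box core, CTNGNAACT (AGTTNCNAG on the other strand), and a Y box core, ATTGG. On the other strand the Y core reads CCAAT. These motifs were chosen after the windows had been seen. The stretches below run from upstream of the X core to past the Y core, 5′ to 3′ on the gene's strand, with both cores in capitals.
H2-Aa, chr17:34287847-34287927, minus strand: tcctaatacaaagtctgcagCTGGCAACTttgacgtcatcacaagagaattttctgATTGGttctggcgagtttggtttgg
H2-Eb1, chr17:34305753-34305832, plus strand: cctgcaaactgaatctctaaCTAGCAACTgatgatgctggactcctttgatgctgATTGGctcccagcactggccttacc
The X core began at -84 from the start in H2-Aa and at -94 in H2-Eb1, and the Y core followed after 27 and 26 bases. In the H2-DMb1 window the letters CTAGTAACT stood at -97 and ATTGG at -61, whereas the H2-DMa windows held no X core. Among 32851 mouse promoter windows, 4.10% held the X core, 37.4% the Y core and 0.113% an X core followed on the same strand by a Y core 10 to 40 bases further on. A match describes letters and is not a bound site.

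The classical alpha chain gene H2-Aa separated the genotypes. In pools 1 to 4 its level was 21.3, 24.6, 44.9 and 35.5 CPM in WT ATV:ISO mice and 20.7, 18.1, 32.8 and 30.2 CPM in WT ATV:4D9 mice. It was 125, 166, 455 and 137 CPM in AppSAA ATV:ISO mice, 213, 144, 235 and 147 CPM in AppSAA 4D9 mice, and 48.4, 81.0, 144 and 77.0 CPM in AppSAA ATV:4D9 mice. Every AppSAA mouse lay above every WT mouse, and the AppSAA ATV:ISO mouse of pool 3 stood far above the other 3 of its group.

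The beta chain gene H2-Ab1 separated the genotypes in the same way, and H2-Eb1 did so with an overlap of single mice. H2-Ab1 was at 32.4, 35.5, 56.1 and 45.5 CPM in WT ATV:ISO, 36.3, 33.0, 50.6 and 46.8 CPM in WT ATV:4D9, 133, 179, 445 and 170 CPM in AppSAA ATV:ISO, 198, 160, 251 and 169 CPM in AppSAA 4D9, and 67.4, 106, 163 and 104 CPM in AppSAA ATV:4D9. H2-Eb1 was at 17.8, 21.8, 36.7 and 27.7 CPM in WT ATV:ISO, 16.2, 15.5, 25.1 and 23.4 CPM in WT ATV:4D9, 65.1, 95.4, 269 and 89.9 CPM in AppSAA ATV:ISO, 113, 83.5, 132 and 90.2 CPM in AppSAA 4D9, and 31.3, 50.6, 89.5 and 50.9 CPM in AppSAA ATV:4D9. The AppSAA ATV:4D9 mouse of pool 1 lay below the WT ATV:ISO mouse of pool 3 for H2-Eb1. The mouse of pool 3 was the highest of its group for H2-Aa, H2-Ab1 and H2-Eb1 in all 5 groups. Over the 20 mice, deviations of log2 CPM from the group means correlated at 0.987 to 0.996 between the 3 chains, as a description of mice that share pools.

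Cd74, the invariant chain, had a pattern of its own. It was at 118, 145, 162 and 129 CPM in WT ATV:ISO, 290, 285, 248 and 230 CPM in WT ATV:4D9, 627, 926, 1573 and 590 CPM in AppSAA ATV:ISO, 1030, 783, 948 and 624 CPM in AppSAA 4D9, and 552, 667, 856 and 559 CPM in AppSAA ATV:4D9. The 2 WT groups did not overlap for Cd74, whereas they overlapped for each classical chain, and the 3 AppSAA groups overlapped one another.

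The peptide editor genes moved in a narrow range. H2-DMa was at 282, 244, 277 and 255 CPM in WT ATV:ISO, 195, 200, 192 and 186 CPM in WT ATV:4D9, 305, 286, 298 and 297 CPM in AppSAA ATV:ISO, 341, 285, 277 and 277 CPM in AppSAA 4D9, and 188, 232, 215 and 201 CPM in AppSAA ATV:4D9. Both ATV:4D9 groups lay below the matching ATV:ISO groups without overlap. H2-DMb1 ran from 142 to 225 CPM over all mice, and its groups overlapped in every comparison. H2-DMb1 has a near-identical neighbour, H2-DMb2, and how reads of the pair were divided is not given in the sources used here, so the values of both are uncertain.

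Ciita was close to the limit of detection, with 2 to 217 UMIs per mouse. It was at 0.292, 0.0976, 0.563 and 0.283 CPM in WT ATV:ISO, 0.0840, 0.158, 0.422 and 0.491 CPM in WT ATV:4D9, 0.389, 0.720, 2.91 and 1.36 CPM in AppSAA ATV:ISO, 0.690, 0.573, 1.33 and 1.01 CPM in AppSAA 4D9, and 0.159, 0.358, 0.533 and 0.644 CPM in AppSAA ATV:4D9. As with the chains, the AppSAA ATV:ISO mouse of pool 3 was the highest of all mice.

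**Figure D1:**
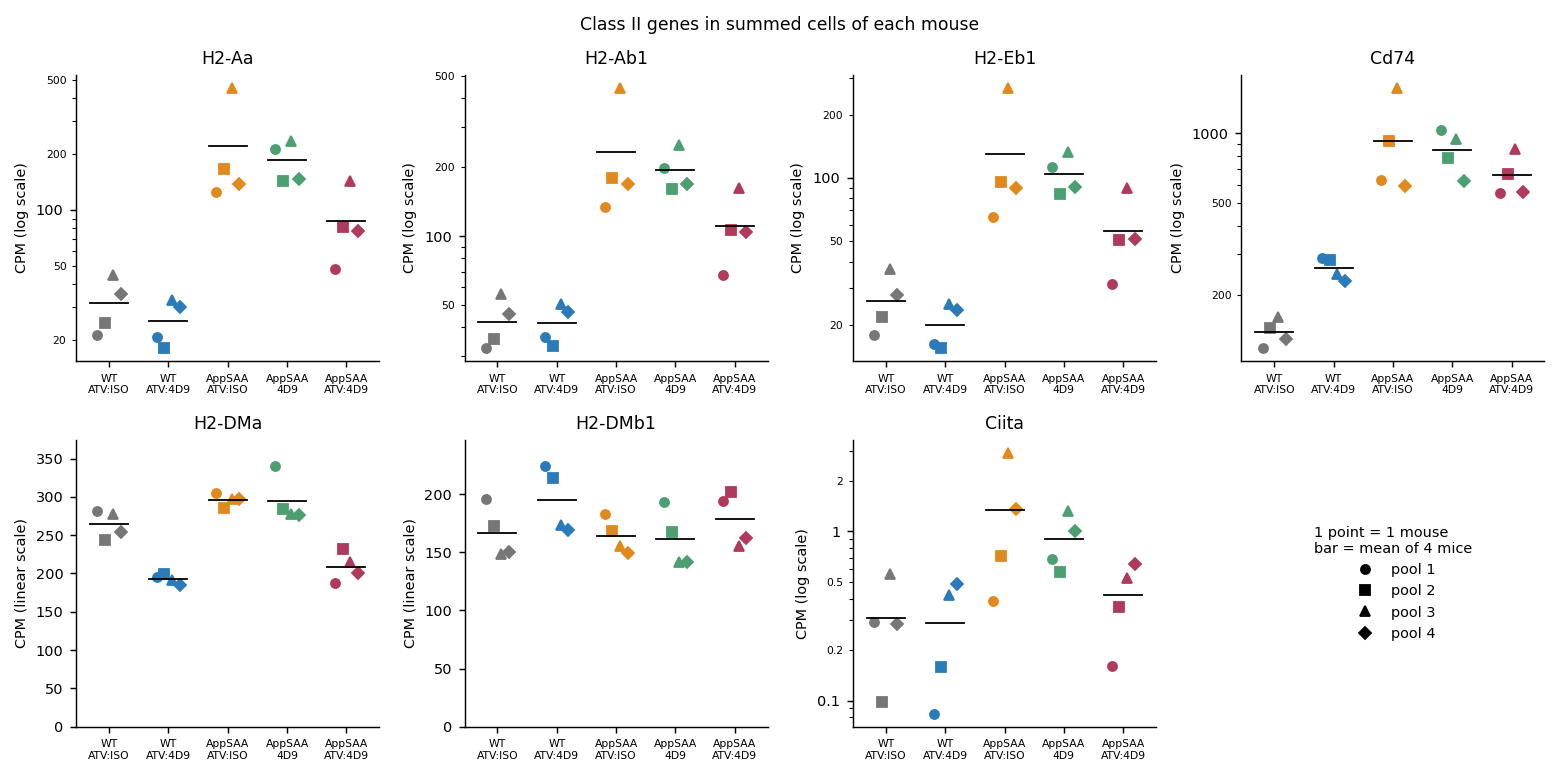
CPM of each class II gene in the summed cells of each mouse (points, shaped by pool), with the mean of the 4 mice of a group as a bar; the axes are logarithmic except for H2-DMa and H2-DMb1, which start at 0. H2-Aa and H2-Ab1 are higher in all AppSAA mice than in all WT mice, and the triangle of pool 3 tops the AppSAA ATV:ISO group at 455 CPM for H2-Aa.

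Groups were compared on the summed counts with edgeR's quasi-likelihood test, with p adjusted over all 14058 genes by Benjamini-Hochberg and a gene called at an adjusted p under 0.05. Fold changes are differences of log2 level ± SE. The SE is the size of the difference divided by the square root of the test's F statistic. It is therefore approximate and not a separate estimate. Summed counts alone cannot tell a change in the number of class II cells from a change in RNA per cell. The share of class II-high cells and the level within them are given further on. Both are relative to a cell's UMIs, which differed between groups, so they do not settle this either.

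The genotype comparison in isotype-treated mice gave the largest changes of the chains and Cd74 among these comparisons. Against WT ATV:ISO, 6 of 7 members rose in AppSAA ATV:ISO, where edgeR called 28.2% of all genes tested. H2-Aa rose by 2.98 ± 0.38 (adjusted p = 4.95e-06), Cd74 by 2.92 ± 0.25 (2.39e-08), H2-Ab1 by 2.62 ± 0.30 (1.40e-06) and H2-Eb1 by 2.49 ± 0.36 (2.19e-05) on the log2 scale. H2-Aa UMIs per cell were 9.40 times and Cd74 UMIs per cell 9.05 times as high, or 5.86 and 6.74 times without the AppSAA ATV:ISO mouse of pool 3. The Ciita difference, 2.35 ± 0.63 (adjusted p = 0.00805), was 2.11 (0.0520) without pool 3. H2-DMa rose by 0.35 ± 0.09 (adjusted p = 0.00776) and H2-DMb1 differed by 0.16 ± 0.16 (0.492), although H2-DMb1 was called with the pool as a block (8.59e-04, among 51.0% of all genes). The sign of the H2-DMb1 difference rested on the scaling: it was positive with TMM and RLE factors, whereas the mean unscaled CPM was 164 in AppSAA and 167 in WT mice and the AppSAA mouse was lower in 3 of 4 pools. The 2 groups did not overlap in CPM for 5 members, against 40.0% of all genes. The median difference of the members was 2.49 and that of all genes -0.06. Removing cells with 2 or more UMIs of markers of other immune cell types left H2-Aa 3.23 and Cd74 3.09 higher.

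In WT mice given ATV:4D9 the members called were the invariant chain and a subunit of the editor. Against ATV:ISO, 2 of 7 members were called among 63.3% of all genes: Cd74 rose by 1.05 ± 0.24 (edgeR adjusted p = 6.41e-04) and H2-DMa fell by 0.34 ± 0.09 on the log2 scale (0.00344). The 2 groups did not overlap for these 2 members, against 57.0% of all genes. Differences of the chains were -0.19 ± 0.36 for H2-Aa, 0.10 ± 0.29 for H2-Ab1 and -0.25 ± 0.35 for H2-Eb1. In CPM the ATV:4D9 mouse was below the ATV:ISO mouse in 4 of 4 pools for H2-Aa and H2-Eb1 and in 2 of 4 for H2-Ab1. Those genes did not pass the test with or without the block, nor did Ciita (0.03 ± 0.71). H2-DMb1 was 0.34 ± 0.16 higher (adjusted p = 0.0694) and was called with the pool as a block (9.37e-08, among 74.6% of all genes). Without pool 3 the H2-DMa call was lost (-0.26, 0.0668), leaving 1 member called, among 55.3% of all genes.

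More UMIs were captured per cell after ATV:4D9, and for H2-DMa in WT mice a lower CPM went with more UMIs per cell. H2-DMa stood at 2.03 to 2.45 UMIs per cell in WT ATV:ISO mice and 2.98 to 3.49 in WT ATV:4D9 mice, a ratio of group means of 1.42. Cd74 UMIs per cell rose from 0.925 to 1.43 in WT ATV:ISO to 4.26 to 4.59 in WT ATV:4D9, without overlap and with a ratio of 3.66.

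In AppSAA mice ATV:4D9 lowered the classical chains relative to ATV:ISO. Of 7 members, 5 fell among 55.1% of all genes called by edgeR. H2-Aa fell by 1.26 ± 0.35 (adjusted p = 0.00495), H2-Ab1 by 1.00 ± 0.28 (0.00565), H2-Eb1 by 1.15 ± 0.34 (0.00694), Ciita by 1.64 ± 0.51 (0.00973) and H2-DMa by 0.44 ± 0.09 (5.24e-04) on the log2 scale. Cd74 differed by -0.42 ± 0.23 (0.133) and H2-DMb1 by 0.19 ± 0.16 (0.323), the latter called with the pool as a block (1.55e-04, among 70.7% of all genes). Within pools, the ATV:4D9 mouse was below the ATV:ISO mouse in 4 of 4 pools for each of these 5 genes and for Cd74. In the fit without a block 4 of the calls were lost when a single mouse was left out, which also left its pool unbalanced: without the AppSAA ATV:ISO mouse of pool 3, H2-Aa differed by -0.68 (0.0538), H2-Ab1 by -0.51 (0.0562), H2-Eb1 by -0.56 (0.0817), Ciita by -0.96 (0.111) and Cd74 by -0.08 (0.753), and H2-DMa was the only member called, while 49.7% of all genes were. Without all mice of pool 3, H2-Aa fell by 1.00 (0.00321), H2-Ab1 by 0.73 (0.00328) and H2-Eb1 by 0.85 (0.00362), and Ciita was not called (-1.04, 0.131), with 45.8% of all genes called. The 3 monocyte genes summed to 2.44 to 8.18 CPM in AppSAA ATV:ISO and 1.53 to 3.00 CPM in AppSAA ATV:4D9 mice, and to 3.44 to 6.11 and 1.55 to 3.42 CPM in the WT mice given each. Their part in the lower chains was not tested on its own. Removing cells with 2 or more UMIs of other immune markers, these genes included, left mean class II-high shares of 3.89% in AppSAA ATV:4D9 and 6.99% in AppSAA ATV:ISO. With all cells these shares, described further on, were 4.09% and 7.38%. The groups did not overlap in CPM for 1 member, H2-DMa, against 47.7% of all genes. UMIs per cell in ATV:4D9 mice were 0.574 times (H2-Aa), 0.690 times (H2-Ab1) and 0.618 times (H2-Eb1) those in ATV:ISO mice, but 1.04 times for both Cd74 and H2-DMa. These ratios moved with 1 mouse: without the AppSAA ATV:ISO mouse of pool 3 they were 0.921, 1.03 and 0.996, and that of Cd74 was 1.39. This keeps the high ATV:4D9 mouse of pool 3 without its pool partner. Within every pool, UMIs per cell of each chain were lower in the ATV:4D9 mouse. H2-Aa was at 0.871, 1.24, 2.46 and 1.39 UMIs per cell in ATV:4D9 mice of pools 1 to 4. It was at 1.29, 1.88, 5.53 and 1.68 in ATV:ISO mice. Cd74 was higher in the ATV:4D9 mouse of pools 1 and 4 and lower in that of pools 2 and 3.

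The 4D9 antibody without the transport backbone gave no called difference in summed cells. Against AppSAA ATV:ISO, 0 of 7 members and 0% of all genes passed edgeR's test, with 79 genes at an unadjusted p under 0.05, 0 genes called by limma-voom and 1 by DESeq2. H2-Aa differed by -0.22 ± 0.35, H2-Ab1 by -0.22 ± 0.28 and Cd74 by -0.11 ± 0.23, each at an adjusted p of 1.00. These intervals leave room for changes of either sign, and without the AppSAA ATV:ISO mouse of pool 3 the H2-Aa difference was 0.36. No member's 2 groups were apart in CPM, and 0.654% of all genes were.

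Set directly against 4D9, ATV:4D9 left 4 of 7 members lower in AppSAA mice, with 54.3% of all genes called. H2-Aa fell by 1.04 ± 0.35 (edgeR adjusted p = 0.0171), H2-Ab1 by 0.77 ± 0.28 (0.0263), H2-Eb1 by 0.87 ± 0.34 (0.0343) and H2-DMa by 0.45 ± 0.09 (4.44e-04) on the log2 scale. The groups did not overlap for H2-Aa and H2-DMa, against 46.9% of all genes, but for H2-Aa only by 143.7 CPM in the highest ATV:4D9 mouse against 143.9 CPM in the lowest 4D9 mouse. In 4 of 4 pools the ATV:4D9 mouse was below the 4D9 mouse for each of the 3 chains, but their calls in the fit without a block moved with single mice: leaving out the AppSAA ATV:4D9 mouse of pool 1 or pool 4 left only H2-DMa called, among 46.9 and 51.8% of all genes. Leaving out the ATV:4D9 mouse of pool 2 or the 4D9 mouse of pool 1 or pool 3 left 2 members, among 52.9, 52.7 and 48.6% of all genes. With the pool as a block, which called 69.9% of all genes, Ciita (0.00742) and H2-DMb1 (4.19e-05) were called as well. Without it Ciita differed by -1.05 ± 0.53 and H2-DMb1 by 0.20 ± 0.16. In 4 of 4 pools the ATV:4D9 mouse was lower for Ciita and higher for H2-DMb1.

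After ATV:4D9 the genotype difference remained, at a smaller size for Cd74. Against WT ATV:4D9, 4 of 7 members rose in AppSAA ATV:4D9 among 11.8% of all genes: H2-Aa by 1.91 ± 0.36 (edgeR adjusted p = 0.00104), H2-Eb1 by 1.60 ± 0.34 (0.00331), H2-Ab1 by 1.53 ± 0.29 (9.90e-04) and Cd74 by 1.46 ± 0.24 (2.18e-04). These 4 did not overlap between groups, against 22.2% of all genes. H2-DMa was 0.25 ± 0.09 higher (0.0883; with the pool as a block 0.00356, among 31.4% of all genes). The interaction, the AppSAA response to ATV:4D9 minus the WT response, called 1 member among 9.14% of all genes, Cd74 at -1.47 ± 0.33 (0.00706). H2-Ab1 stood at -1.09 ± 0.40 (0.101), H2-Aa at -1.07 ± 0.50 (0.215) and H2-Eb1 at -0.90 ± 0.48 (0.300). With the pool as a block the interaction called 6 members, all but H2-DMa, among 30.5% of all genes. The interaction in summed cells spans groups that differ in their mix of clusters, given further on. Within deposited coarser cluster 3, where it could also be fitted, Cd74 stood at -0.21 ± 0.35 and was not called, with 0% of genes called. These comparisons share groups of mice and are not independent of one another.

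**Figure D2:**
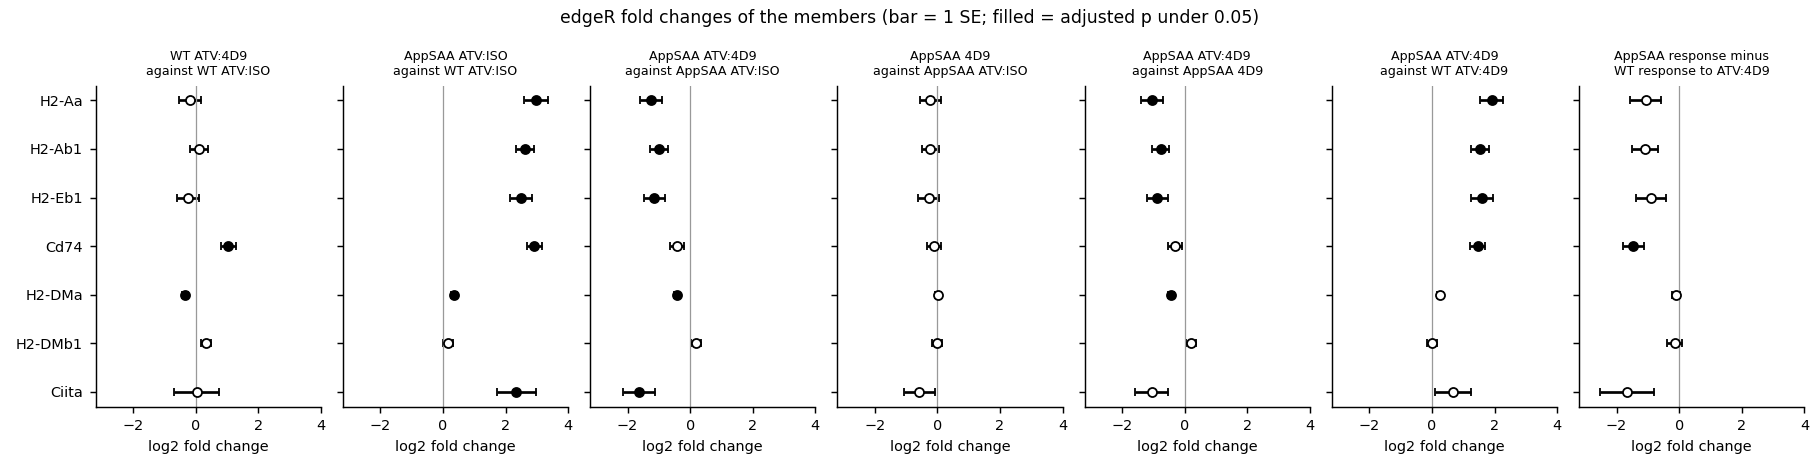
Log2 fold changes of the 7 members in 6 group comparisons and the genotype by treatment interaction, from edgeR on counts summed per mouse (n = 4 per group); bars are 1 SE and filled points have an adjusted p under 0.05. The chains and Cd74 are 2.49 to 2.98 higher in AppSAA ATV:ISO than in WT ATV:ISO, and no point is filled for 4D9 against ATV:ISO.

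For Cd74 the percent of cells with a UMI separated groups that overlapped in CPM. After thinning, 46.0, 53.8, 62.4 and 51.2% of cells had a Cd74 UMI in AppSAA ATV:ISO mice and 72.8, 68.4, 77.2 and 71.8% in AppSAA ATV:4D9 mice. All 4 ATV:4D9 mice lay above all 4 ATV:ISO mice by this measure, while their CPM overlapped. WT mice went from 27.3 to 39.1% in ATV:ISO to 55.4 to 58.7% in ATV:4D9, again without overlap. In an exact permutation test (two-sided, n = 4 per group), both differences gave p = 0.0286, the smallest that 4 against 4 mice can give, and 0.133 after adjustment over the 42 tests of percents. No member passed the adjusted threshold in this test. With 4 against 4 mice the smallest p passes only if many of the 42 tests share it, so this does not show equal groups.

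The classical chains were found in fewer cells than Cd74. H2-Aa had a UMI in 10.5 to 24.2% of WT ATV:ISO cells before thinning and 17.7 to 43.0% of AppSAA ATV:ISO cells. Thinned, the group means were 10.5% in WT ATV:ISO, 8.84% in WT ATV:4D9, 19.2% in AppSAA ATV:ISO, 17.9% in AppSAA 4D9 and 14.8% in AppSAA ATV:4D9, and the genotypes overlapped. Within pools, a comparison added with the data in view, thinned H2-Aa was higher in the AppSAA than the WT mouse in 4 of 4 pools, by 5.16 to 15.3 percentage points with ATV:ISO and 3.65 to 9.17 with ATV:4D9. H2-Ab1 did not overlap between AppSAA and WT mice given ATV:ISO, at 21.7, 27.6, 40.0 and 29.1% of thinned cells in the AppSAA and 11.5, 11.8, 20.2 and 16.7% in the WT mice of pools 1 to 4 (exact permutation p = 0.0286, adjusted 0.133). H2-Eb1 overlapped, at means of 15.8% and 8.70%, and was higher in the AppSAA mouse in 4 of 4 pools, by 4.63 to 12.2 percentage points. H2-DMa was found in 59.9 to 71.7% of thinned cells and H2-DMb1 in 54.0 to 60.6% (group means). Ciita had a UMI in 0.142 to 0.511% of thinned cells.

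The UMIs of the chains were held by few cells. Of 321677 UMIs of H2-Aa, H2-Ab1 and H2-Eb1, 45.3% lay in 1% of the cells and 80.9% in 10%, and 40.7% of cells had none. The top 10% of cells of a mouse held 83.2% of the chains' UMIs in AppSAA ATV:ISO, 83.0% in AppSAA 4D9, 73.3% in AppSAA ATV:4D9, 59.1% in WT ATV:ISO and 52.8% in WT ATV:4D9 (means of 4 mice). For Cd74 that share was 78.7% ± 2.08 in AppSAA ATV:ISO and 54.9% ± 4.85 in AppSAA ATV:4D9, groups whose depth per cell also differed. For H2-DMa and H2-DMb1 it was 27.2 to 32.8%.

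Cells with at least 10 UMIs of the 3 chains per 10000 UMIs are called class II-high here, counted among the 70449 cells with at least 5000 UMIs. The limit is relative to a cell's own UMIs, whose number differed between groups. There were 2858 class II-high cells (4.06%), a range cut from a score rather than a cell type, and 752 cells lay within 20% of the limit. Their share was 0.216, 0.330, 0.348 and 0.251% in the WT ATV:ISO mice of pools 1 to 4, and 0.274, 0.266, 0.382 and 0.289% in the WT ATV:4D9 mice. It was 4.03, 6.20, 13.9 and 5.34% in AppSAA ATV:ISO mice, 4.36, 5.18, 8.92 and 5.43% in AppSAA 4D9 mice, and 1.84, 3.80, 7.32 and 3.39% in AppSAA ATV:4D9 mice. The share was 25.8 times as high in AppSAA as in WT mice given ATV:ISO and 13.5 times as high in those given ATV:4D9, without overlap in either case. These ratios moved with the limit: they were 10.8 and 9.14 at 5 UMIs per 10000, and 29.3 and 11.2 at 20. By an exact permutation test (two-sided, n = 4 per group) each had p = 0.0286, or 0.0857 adjusted over 6 comparisons, so neither passed the threshold, which this design could not reach with 2 such comparisons. AppSAA ATV:4D9 mice had a mean share 3.29 percentage points under that of AppSAA ATV:ISO mice, and the groups overlapped (exact permutation p = 0.229). Without the AppSAA ATV:ISO mouse of pool 3 the mean shares were 4.09% and 5.19%, and without the AppSAA 4D9 mouse of pool 3 the difference from 4D9 went from -1.88 to -0.902. Both keep the ATV:4D9 mouse of pool 3, the highest of its group at 7.32%, without its pool partner, so these comparisons are unbalanced. Within pools the share after ATV:4D9 was lower than after ATV:ISO in 4 of 4, by 1.95 to 6.61 percentage points. Against 4D9 it was also lower in 4 of 4, by 1.38 to 2.53. An exact sign-flip test over the 4 pools, added with the data in view, gave a two-sided p = 0.125 for both (0.188 adjusted over 6 comparisons), the smallest that 4 pools allow.

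Most class II-high cells held UMIs of microglial markers, P2ry12 in 97.8% of them and Tmem119 in 83.4%. Since 2787 of the 2858 came from AppSAA mice, they were compared with the other cells of the same group. In AppSAA ATV:ISO mice P2ry12 was at 860 CPM in class II-high and 1717 CPM in other cells, and Tmem119 at 364 and 791 CPM, both lower in class II-high cells in 4 of 4 mice. In AppSAA 4D9 mice the levels were 648 and 1634 CPM for P2ry12 and 220 and 774 CPM for Tmem119, again lower in 4 of 4 mice. In AppSAA ATV:4D9 mice P2ry12 was at 563 and 680 CPM (lower in 3 of 4 mice) and Tmem119 at 496 and 812 CPM (4 of 4). The remaining microglial genes were compared over all groups only. Cx3cr1 was at 2091 CPM in class II-high and 3037 CPM in other cells, and Sall1 at 141 and 216 CPM. Fcrls went the other way, at 1355 and 1276 CPM. Levels of the other members in class II-high cells, which were chosen by the 3 classical chains, were mostly higher. In AppSAA ATV:ISO mice Cd74 was at 6969 CPM against 304 in other cells, H2-DMa at 453 against 278 and H2-DMb1 at 235 against 151, and Ciita had a UMI in 12.2% against 0.427% of cells (median depth 14515 and 9631 UMIs). In AppSAA ATV:4D9 mice, where the depths were 15650 and 15948 UMIs, Cd74 was at 5972 against 422 CPM and H2-DMb1 at 205 against 178, H2-DMa had a UMI in 95.7% against 89.9% of cells and Ciita in 6.23% against 0.418%. H2-DMa CPM was higher in class II-high cells in 4 of 4 mice of both groups, and H2-DMb1 in 4 of 4 and 3 of 4. Within class II-high cells, which were chosen by these genes, H2-Aa averaged 1832 CPM in AppSAA ATV:ISO mice (1540 to 2447), 2025 in AppSAA 4D9 (1589 to 3130) and 1574 in AppSAA ATV:4D9 (1374 to 1837), and the groups overlapped. Markers of other cells were not equally distributed between genotypes. Of the 71 class II-high cells of WT mice, 41 (57.7%) held 2 or more UMIs of other immune cell markers and 37 (52.1%) had the border macrophage gene Mrc1, at 152 CPM. Of 2787 in AppSAA mice, 351 (12.6%) held such UMIs and 180 (6.46%) had Mrc1, at 8.19 CPM. Without marker-bearing cells the share was 0.165% in WT ATV:ISO and 6.99% in AppSAA ATV:ISO (group means), a ratio of 42.2, and the ratio in mice given ATV:4D9 was 35.9.

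**Figure D3:**
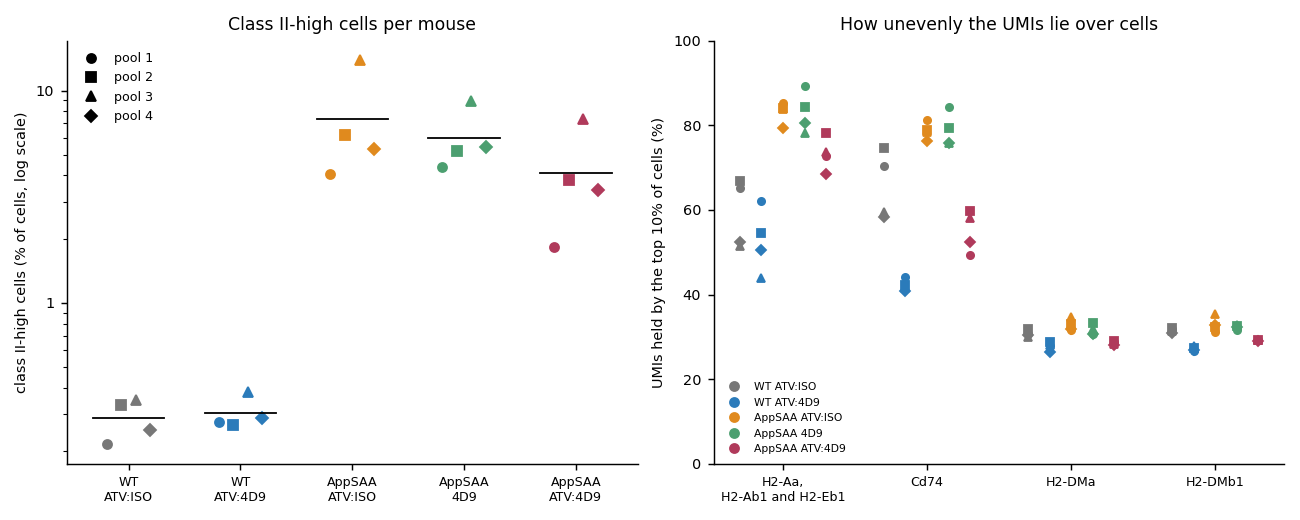
Left, class II-high cells as a percent of each mouse's cells with at least 5000 UMIs (log axis, 1 point per mouse, bar at the mean of 4); right, the percent of a gene's UMIs held by the top 10% of cells of each mouse. AppSAA mice lie at 1.84 to 13.9% and WT mice at 0.216 to 0.382%, and the Cd74 share falls from 78.7% in AppSAA ATV:ISO to 54.9% in AppSAA ATV:4D9.

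Over all groups, deposited coarser cluster 1 held 73.8% of the class II-high cells, which made up 14.6% of its cells, and cluster 5 held 9.34%. By group, cluster 1 held 78.0% of the 1421 such cells in AppSAA ATV:ISO and 89.6% of 788 in AppSAA 4D9, but 49.5% of 578 in AppSAA ATV:4D9, where cluster 5 held 30.1%. Of the WT cells it held 6 of 25 in ATV:ISO and 2 of 46 in ATV:4D9, and in the latter cluster 4 held 25. At the finer resolution, cluster 6 was the densest, with 32.5% of its cells class II-high, and clusters 3 and 6 held 36.9% and 35.4% of all such cells. The clusters carry no deposited names and were formed from the same cells' expression, so their levels are given without a test.

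Levels by cluster are means over mice with at least 50 cells in it, and the groups those mice come from differ between clusters. H2-Aa was at 32.3, 312, 51.1, 28.3, 78.5 and 138 CPM in coarser clusters 0 to 5, and Cd74 at 199, 1457, 466, 221, 408 and 776 CPM. The 13 mice of cluster 1 were 12 AppSAA mice and 1 WT ATV:ISO mouse. In cluster 4, H2-Aa was at 22.0 to 38.6 CPM in WT ATV:4D9 mice, and the mean was raised by 2 AppSAA ATV:ISO mice with 74 and 53 cells, at 311 and 181 CPM. In cluster 5 it was at 27.3 to 33.9 CPM in WT ATV:4D9 and 127 to 591 CPM in AppSAA ATV:ISO mice. Thinned, 73.5% of cluster 1 cells had a Cd74 UMI and 26.6% an H2-Aa UMI, against 41.3% and 10.8% of cluster 0 cells. H2-DMa and H2-DMb1 had no such peak, at 205 to 294 CPM and 143 to 194 CPM, and cluster 1 was the lowest for H2-DMb1.

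The finer clusters split that level further. Finer cluster 6 had H2-Aa at 712 ± 289 CPM and Cd74 at 2682 ± 770 CPM (SD over 12 AppSAA mice), with an H2-Aa UMI in 61.7% of cells unthinned and 44.6% thinned. Finer cluster 3 followed at 192 and 1085 CPM, and finer cluster 5 at 136 and 762 CPM. Finer clusters 0, 1, 2 and 4 had H2-Aa at 26.4 to 32.9 CPM.

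**Figure D4:**
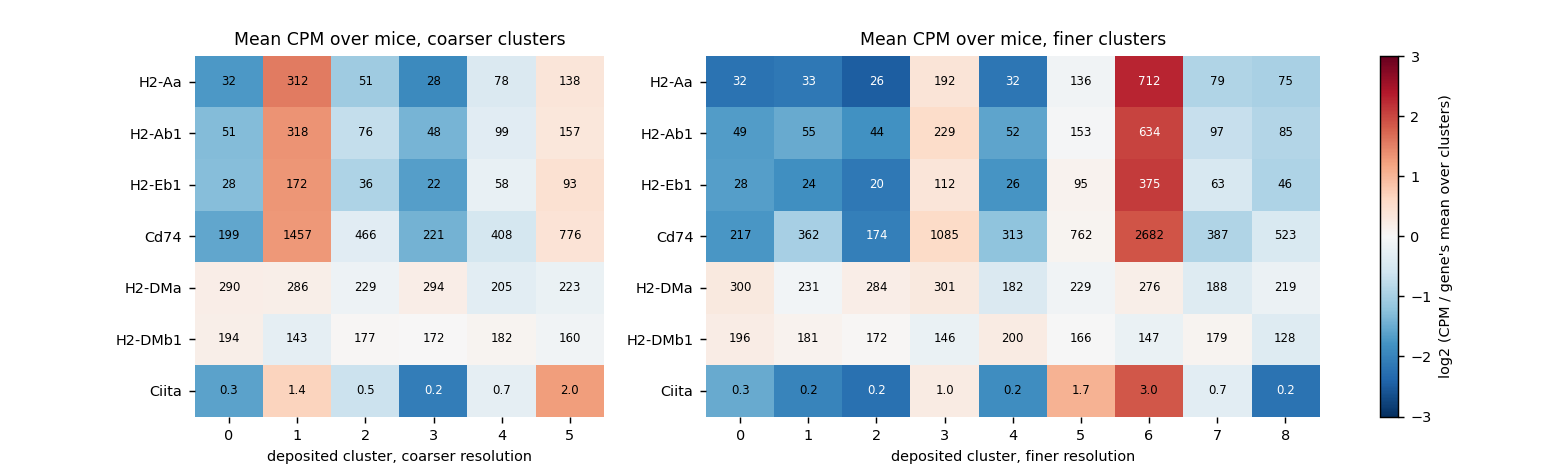
Mean CPM over mice of all groups with at least 50 cells (numbers), so that clusters differ in the groups they average, of each class II gene in the deposited coarser (left) and finer (right) clusters, coloured by the log2 ratio to the gene's mean over clusters. H2-Aa reaches 312 CPM in coarser cluster 1 and 712 CPM in finer cluster 6, while H2-DMa and H2-DMb1 stay near their means.

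The clusters that held the chains' UMIs differed between treatments. Coarser cluster 1 made up 38.3% of cells and held 85.1% ± 7.57 of the H2-Aa UMIs in AppSAA ATV:ISO mice, and 39.4% of cells with 89.8% ± 3.90 in AppSAA 4D9 mice (SD, n = 4). In AppSAA ATV:4D9 mice it made up 13.5% of cells and held 41.9% ± 11.9 of the H2-Aa UMIs, and cluster 5, with 22.4% of cells, held 24.8% ± 5.73. For Cd74, cluster 1 held 83.1, 87.1 and 27.6% of UMIs in AppSAA ATV:ISO, 4D9 and ATV:4D9 mice. In WT ATV:ISO mice cluster 1 was 1.41% of cells, and 37.7% of H2-Aa UMIs lay in cluster 0. In WT ATV:4D9 mice, clusters 2 and 4 held 36.9% and 52.3% of H2-Aa UMIs.

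Within clusters the comparisons were repeated by edgeR on mice with at least 50 cells, 1 fit per coarser cluster. In cluster 1, where most H2-Aa UMIs of AppSAA ATV:ISO and 4D9 mice lay, but not those of ATV:4D9 mice, none of the 7 members was called between AppSAA ATV:4D9 and ATV:ISO (1.83% of genes called), 4D9 and ATV:ISO (0%) or ATV:4D9 and 4D9 (1.88%). H2-Aa in cluster 1 differed by -0.16 ± 0.34 and Cd74 by 0.15 ± 0.26 between ATV:4D9 and ATV:ISO, and the mean H2-Aa level was 313 CPM and 367 CPM. At an unadjusted p under 0.05 the only member in these 3 comparisons was H2-DMa (-0.22 ± 0.09 for ATV:4D9 against ATV:ISO, edgeR adjusted p = 0.356), and with the pool as a block H2-DMa and H2-DMb1 were called in that comparison, at -0.22 each, among 10.2% of genes.

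Other clusters did show differences. In cluster 2, ATV:4D9 against ATV:ISO in AppSAA mice lowered H2-Aa by a difference of -1.20, H2-Eb1 by -1.06 and H2-Ab1 by -0.93 and raised H2-DMb1 by 0.43, with 11.8% of genes called. The AppSAA ATV:ISO mice had 87, 75, 172 and 113 cells there, so this comparison could not be made with at least 100 cells per mouse, and limma-voom called 2 members, among 9.77% of genes. With each of the 8 mice left out in turn, H2-Ab1 stayed called, while H2-Aa lost its call without 3 of the mice, H2-DMb1 without 5 and H2-Eb1 without 6. Without the AppSAA ATV:ISO mouse of pool 3, H2-Aa differed by -0.95 (edgeR adjusted p = 0.141), among 5.59% of genes called. In cluster 5 (4 and 3 mice), H2-Aa, H2-Ab1, H2-Eb1, Ciita and H2-DMa fell, at differences of -1.56, -1.16, -1.60, -2.58 and -0.30, with 28.1% of genes called. The 3 AppSAA ATV:ISO mice there were uneven, H2-Aa being at 127, 591 and 207 CPM in 104, 233 and 113 cells (pools 2, 3 and 4). Without the mouse of pool 3, which leaves 2, Ciita was the only member called (-2.69), among 11.8% of genes, and H2-Aa (-0.67, edgeR adjusted p = 0.131), H2-Ab1 (-0.37, 0.311), H2-Eb1 (-0.62, 0.180) and H2-DMa (-0.29, 0.121) were not. H2-DMa also lost its call without each of 4 other mice. Cluster 3 had a rise in Cd74, by 1.12, and in H2-DMa, by 0.41, in the same comparison, with 4.33% called, 2 of the ATV:4D9 mice having 78 and 68 cells, so it too could not be made with at least 100 cells per mouse. The call of H2-DMa was lost without the ATV:4D9 mouse of pool 1 (adjusted p = 0.0667) or the ATV:ISO mouse of pool 3 (0.0866). The block added H2-DMb1 (0.24) there, among 12.6% of genes. In WT mice Cd74 rose in cluster 3 by 1.33 after ATV:4D9 (6.17% called), and in cluster 0, with 1.57% of genes called, none of the 6 members tested was (Ciita did not pass the filter), Cd74 standing at 1.06 ± 0.32 (adjusted p = 0.107). With the pool as a block Cd74 (1.15) and H2-DMb1 (0.33) were called in cluster 0, among 9.39% of genes, and H2-DMa (0.31) and H2-DMb1 (0.36) as well in cluster 3, among 17.5%. Against 4D9, ATV:4D9 raised Cd74 in cluster 3 by 1.36 (3.52% called), and H2-DMa fell in cluster 2, at -0.39 (11.6% called), a call lost without the 4D9 mouse of pool 1 (-0.28, adjusted p = 0.0735). The block added H2-Eb1 (-0.73), H2-Ab1 (-0.37) and H2-DMb1 (0.29) in cluster 2, among 20.3% of genes, and H2-DMa (0.34) and H2-DMb1 (0.29) in cluster 3, among 11.2%. Between 4D9 and ATV:ISO, H2-Aa in cluster 0 differed by -1.02 ± 0.42 and was called with the block alone (-0.93, adjusted p = 0.0395), the only gene of 11627 that was.

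The genotypes also differed within clusters. Between AppSAA ATV:ISO and WT ATV:ISO, Cd74 was called in cluster 0 at 1.48 ± 0.30, with 0.232% of genes called, and H2-Aa was not (1.41 ± 0.42). Cd74 in cluster 0 was at 114, 122, 507 and 269 CPM in AppSAA ATV:ISO and 71.9, 88.5, 115 and 92.5 CPM in WT ATV:ISO mice, so the groups overlapped and the AppSAA mouse of pool 3 was highest. The call was lost without 6 of the 8 mice, namely the AppSAA mouse of pool 3 (0.92, edgeR adjusted p = 0.116) or pool 4 or any of the 4 WT mice. With limma-voom 0 members were called there, among 0.232% of genes, and with the pool as a block 5 were, among 4.83%: Cd74, H2-Aa (1.32), H2-Ab1 (1.21), H2-Eb1 (1.23) and H2-DMb1 (0.16). In cluster 3 none of the 6 members tested, Ciita again being filtered out, was called between these groups (0.189% of genes), with Cd74 at 1.05 ± 0.24 (edgeR adjusted p = 0.0797). With the pool as a block 4 members rose there, among 1.64% of genes: Cd74 by 0.98 (0.00167), H2-Ab1 by 0.83 (6.15e-05), H2-Eb1 by 0.71 (0.00670) and H2-Aa by 0.68 (0.0443). After ATV:4D9, AppSAA exceeded WT mice for Cd74 in cluster 2 by 0.83 and for H2-Ab1 by 0.78 (2.35% called), for Cd74 in cluster 4 by 0.67 (2.53% called), and in cluster 5 for Cd74 by 1.73, H2-Aa by 1.73, H2-Ab1 by 1.44 and H2-DMa by 0.34 (6.84% called). With 1 of the 8 mice left out in turn, H2-Ab1 in cluster 2, Cd74 in cluster 4 and H2-DMa in cluster 5 each lost their calls without 4 of the mice, and Cd74 in cluster 2 without the WT mouse of pool 4, whereas Cd74, H2-Aa and H2-Ab1 in cluster 5 stayed called. The block added H2-Aa and H2-Eb1 in cluster 2 (0.99 and 0.89, among 7.94% of genes), Cd74 in cluster 3 (0.79, among 1.70%), H2-Aa, H2-Ab1 and H2-Eb1 in cluster 4 (0.65, 0.69 and 0.68, among 15.6%) and H2-Eb1 in cluster 5 (adjusted p = 8.55e-04, among 17.5%).

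**Figure D5:**
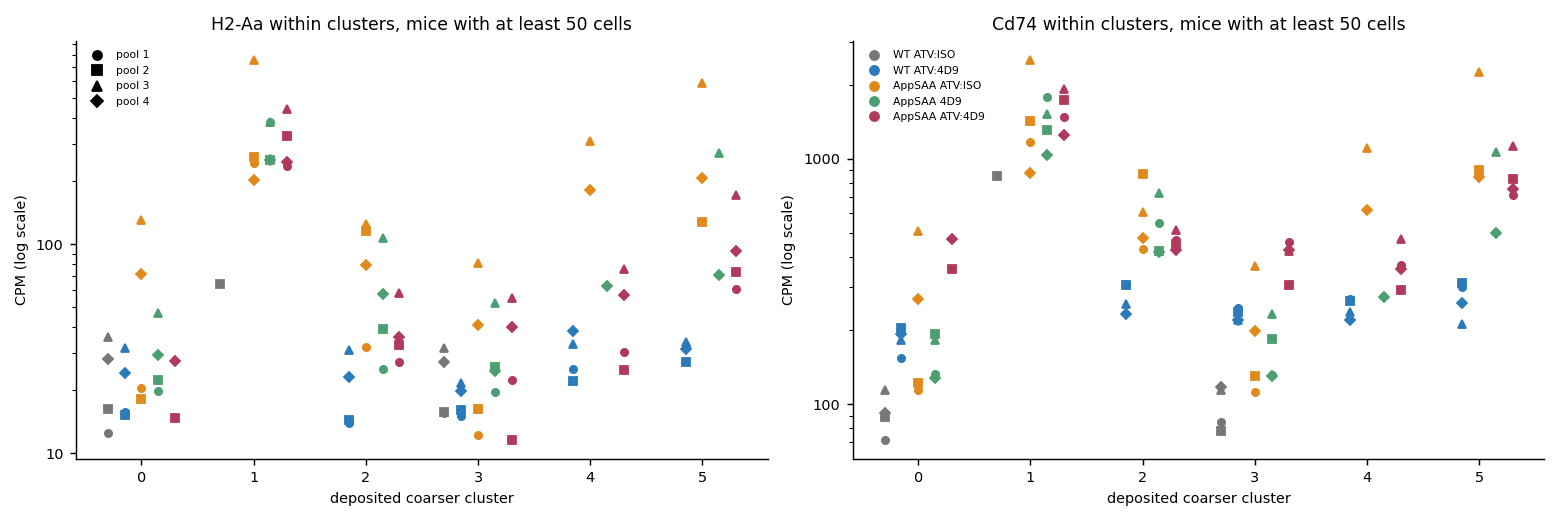
H2-Aa and Cd74 CPM within each deposited coarser cluster, 1 point per mouse with at least 50 cells, coloured by group (log axis). In cluster 1 the AppSAA groups overlap (H2-Aa means 313 to 367 CPM), while in cluster 3 Cd74 is higher in WT ATV:4D9 than in WT ATV:ISO mice without overlap; the matching AppSAA groups overlap there through the ATV:ISO mouse of pool 3.

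Low class II values differed between pools. Among cells under the class II-high limit, H2-Aa was at 13.9, 16.5, 32.7 and 26.8 CPM in WT ATV:ISO mice of pools 1 to 4 and at 24.2, 31.6, 49.9 and 34.2 CPM in AppSAA ATV:ISO mice. Over a whole pool, H2-Aa was at 69.1, 85.7, 228 and 84.1 CPM in pools 1 to 4, and 87.5 to 95.2% of these UMIs came from AppSAA mice. Pool 3 was highest by both measures, but the other pools were not in the same order: low cells of pool 4 had more H2-Aa than those of pool 2, while over the whole pool the level was 84.1 and 85.7 CPM. The ratio of H2-Aa to H2-Ab1 UMIs was 0.367 to 0.722 in these low cells and 1.12 to 1.16 in class II-high cells. The part of RNA shared between cells of a pool in the low values was not tested.

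Other genes of the pathway moved in both directions. Of 32 further genes, 30 were tested, and against WT ATV:ISO the AppSAA ATV:ISO mice had 8 higher and 9 lower, or 56.7% called against 28.2% of all genes. The lysosomal proteases Ctsl, Ctsb and Ctsd, which degrade antigen and the invariant chain, rose by 1.11, 1.05 and 0.98. The other 3 genes of that list were not called, with Ctss, which also cleaves the invariant chain, at a difference of 0.25, Lgmn at -0.27 and Ifi30 at -0.21. The H2-DM inhibitor genes H2-Oa and H2-Ob rose by 0.78 and 0.49, and Cd83, Cd274 and Pdcd1lg2, Cd274 and Pdcd1lg2 encoding ligands of the receptor PD-1, by 0.71, 1.46 and 2.74, Pdcd1lg2 from 0.0590 to 0.356 CPM. Among the 9 lower genes, the co-stimulatory ligands Cd80, Icosl and Cd86 differed by -0.65, -0.50 and -0.19, the interferon-gamma receptor gene Ifngr1 and its kinase Jak1 by -0.61 and -0.27, and March1, whose ligase removes class II from the cell surface, by -0.54. The X and Y box factor genes Rfxank, Nfyb and Nfyc differed by -0.33, -0.23 and -0.21. The median difference over the 30 was -0.11 and that of all genes -0.06.

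In WT mice 6 of the 30 rose and 13 fell after ATV:4D9, a share of 63.3%, the same as the 63.3% of all genes. Cd40, a co-stimulatory receptor, rose by 2.85 ± 0.30 in WT and 3.77 ± 0.27 in AppSAA mice, from 1.35 to 9.02 CPM and from 1.40 to 18.2 CPM (group means). Ifi30, the lysosomal thiol reductase, rose by 0.95 and 1.14. H2-Oa, H2-Ob and H2-DMb2 fell, at -0.79, -0.81 and -0.94 in WT and -0.68, -0.80 and -0.86 in AppSAA mice. As with H2-DMa, these are shares of a total that was larger per cell after ATV:4D9. They need not be fewer UMIs per cell. In AppSAA mice 10 of the 30 rose and 11 fell, or 70.0% against 55.1% of all genes. The interaction passed the test for 7 of the 30 (23.3% against 9.14%), among them Irf1 at 0.69. Ifng itself had 10 UMIs in all cells, 7 in AppSAA ATV:ISO and 3 in AppSAA ATV:4D9 mice.

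Of 8022 genes with a mean of at least 10 CPM, the 5 whose deviations from the group means were most like the mean of the 7 members were Stk19 (Pearson r = 0.79), Wfdc17 (0.73), 1300002E11Rik (0.73), Glb1 (0.72) and Pex19 (0.72). The 7 members did not move together, H2-DMb1 correlating at -0.52 to -0.56 with the 3 classical chains. With the mean of those 3 chains in place of the 7, the 5 genes were Pgrmc1 (0.88), Mpeg1 (0.82), Nceh1 (0.82), Lars2 (0.81) and Gng12 (0.81), and 0 of them were among the 5 named first. These are descriptions over 20 mice that share pools.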

How the data were processed

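Brain myeloid cells of 20 mice were profiled by 10x 3′ single-cell RNA-seq with CellPlex tags. Per the labels and the study's methods, the authors ran Cell Ranger 6.1.1 on mm10 and Seurat for clustering, and they deposited UMI counts per gene and cell, not normalized, with each cell's mouse, group, pool and cluster. Which cells they had removed, doublets included, is not given in the sources used here, and no doublet caller was run. All 74758 cells were kept. Counts of a mouse were summed over all its cells, or over those in 1 cluster (at least 50 cells, at least 3 such mice in both groups), and tested in edgeR 4.0.16 (R 4.3.3; filterByExpr, TMM, quasi-likelihood test, all 5 groups in a single fit, no block). Adjusted p is Benjamini-Hochberg at 0.05 over all genes tested. Alternatives were limma-voom (limma 3.58.1), DESeq2 1.42.0, RLE factors, no filter, the pool as a replicate block, removal of cells with other immune cell markers, other thinning depths and limits, and each mouse left out. A fit without CMO pool 3 and, within clusters, fits without each mouse were added after the data were seen. All fits that left out mice were run without the block. Leaving out a single mouse also left its pool unbalanced, so a lost call need not reflect that mouse alone. Percents and shares were compared by exact permutation tests over mice (SciPy 1.17.1), and the percent after thinning is each cell's exact expectation.

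According to the deposited text each batch held 1 mouse of every condition, so the pool pairs the mice, and deviations from the group means correlated in all 40 same-pool pairs (0.227 to 0.709, median 0.544, against a median of -0.261 between mice of different pools and groups). Whether the mice of a group came from separate litters is not stated. The test was checked on simulated counts, drawn independently for each mouse and without a pool effect. The check therefore does not cover how the fit without a block behaves on mice paired by pool. A first criterion on recovering changed genes was not met, the misses having few counts, and it was replaced by criteria on calibration and on genes with more counts, so small changes of low genes such as Ciita can be missed.

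The members, pathway lists, markers and the naming rule were chosen with earlier results of these data known. Some genes of these lists are not reported here and are left out of their sums and counts. Named genes are the 7 members, the listed pathway genes and the 5 other genes with a mean of at least 10 CPM whose deviations correlate best with the members' mean. Locations are from the GRCm38 annotation. Promoter windows are from RefSeq. H2-Ea and the promoters of H2-Ab1, Cd74 and Ciita were not analysed here. Cluster comparisons use clusters formed from the same cells.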

Additional observations from a re-analysis of the deposited data

Results flagged for a closer look

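In 6 of 75 groups of 4 mice checked, 1 mouse lay apart from the other 3 by Dixon's criterion, and chance gives about 1 in 20. The AppSAA ATV:ISO mouse of pool 3 did so for 3 members, at 455 CPM for H2-Aa, 445 CPM for H2-Ab1 and 269 CPM for H2-Eb1, and these 3 genes move together, so this is a single mouse counted 3 times. The other flags were H2-DMa in the AppSAA 4D9 mouse of pool 1 (341 CPM), and the thinned percent of cells with a Cd74 UMI in the AppSAA 4D9 mouse of pool 3 (60.5%) and in the WT ATV:4D9 mouse of pool 4 (55.4%). The response of Cd74 to ATV:4D9 in summed cells differed between genotypes by -1.47 on the log2 scale (edgeR interaction, adjusted p = 0.00706). Within cluster 3 it differed by -0.21 ± 0.35, or -0.20 with the pool as a block, and was not called. The thinned percent of cells with a Cd74 UMI went from 32.3 to 57.9% in WT and from 53.4 to 72.6% in AppSAA mice (group means).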

How the results depend on the processing

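Under the alternatives run, 5 to 7 members were called between AppSAA and WT mice given ATV:ISO, and 4 or 5 between those given ATV:4D9, while 17.3 to 51.0% and 5.02 to 31.4% of all genes were called; the counts of 7 and 5 came with the pool as a block, as did the highest shares. The other counts of members were less stable. Leaving out 1 mouse in turn gave 1 to 6 members called for AppSAA ATV:4D9 against ATV:ISO, 1 to 4 against 4D9 and 1 to 2 for the interaction, while 48.0 to 55.4%, 46.9 to 54.4% and 6.79 to 13.2% of all genes were called. Without CMO pool 3, an alternative added with the data in view, 1 member was called for ATV:4D9 in WT mice, among 55.3% of all genes. With the pool as a replicate block the interaction called 6 members, among 30.5% of all genes, and H2-DMb1, H2-DMa and Ciita gained the calls given beside their values; the block changed no other call of a member in summed cells. H2-DMb1 in WT mice was also called with RLE factors (adjusted p = 0.0482), no filter (0.0340) and DESeq2 (0.0373).

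Within clusters the block raised the number of members called to 2 (WT ATV:4D9 against ATV:ISO), 5 (AppSAA against WT, ATV:ISO) and 1 (AppSAA 4D9 against ATV:ISO) in cluster 0, 2 (AppSAA ATV:4D9 against ATV:ISO) in cluster 1, 4 (AppSAA ATV:4D9 against 4D9) and 4 (AppSAA against WT, ATV:4D9) in cluster 2, 3 (WT ATV:4D9 against ATV:ISO), 4 (AppSAA against WT, ATV:ISO), 3 (AppSAA ATV:4D9 against 4D9) and 1 (AppSAA against WT, ATV:4D9) in cluster 3, and 4 (AppSAA against WT, ATV:4D9) in cluster 4. It also added 1 member for AppSAA ATV:4D9 against ATV:ISO in cluster 3 (3 called) and for AppSAA against WT given ATV:4D9 in cluster 5 (5 called). The calls over all genes also rose, from 1.57 to 9.39%, 0.232 to 4.83% and 0 to 0.00860% in these comparisons of cluster 0, 1.83 to 10.2% in cluster 1, 11.6 to 20.3% and 2.35 to 7.94% in cluster 2, 6.17 to 17.5%, 0.189 to 1.64%, 3.52 to 11.2% and 0.163 to 1.70% in cluster 3, 2.53 to 15.6% in cluster 4, and from 4.33 to 12.6% and 6.84 to 17.5% in the last 2 named. At 100 or more cells per mouse 13 of the 20 comparisons within clusters could be made. With limma-voom the count of members was 0 for AppSAA against WT in cluster 0 (0.232% of genes) and 2 for AppSAA ATV:4D9 against ATV:ISO in cluster 2 (9.77%). With 1 mouse left out in turn, which was added with the data in view, the members called ran from 0 to 2 (AppSAA against WT, ATV:ISO) in cluster 0, 0 to 1 (AppSAA ATV:4D9 against 4D9), 1 to 4 (ATV:4D9 against ATV:ISO) and 0 to 4 (AppSAA against WT, ATV:4D9) in cluster 2, 1 to 2, 1 to 2 and 0 to 1 (AppSAA ATV:4D9 against 4D9 and ATV:ISO, and AppSAA against WT, ATV:ISO) in cluster 3, 0 to 1 (AppSAA against WT, ATV:4D9) in cluster 4, and 1 to 6 (AppSAA ATV:4D9 against ATV:ISO) and 3 to 5 (AppSAA against WT, ATV:4D9) in cluster 5, and the other 10 comparisons within clusters kept their counts. The share of all genes called moved too in such fits, as given above for clusters 2 and 5 without the AppSAA ATV:ISO mouse of pool 3. These ranges are not set against that share, so they do not describe the members alone. The cause was not tested.

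The WT difference in class II-high cells, ATV:4D9 minus ATV:ISO, changed sign to -0.292 percentage points at a limit of 5 and -0.0572 without cells bearing other markers, and ran from -0.00983 to 0.0371 with 1 mouse left out. With the pool as a replicate block (exact test within pools, added with the data in view) no share passed the test, at adjusted p from 0.188 to 0.625. With 1 mouse left out, the difference of AppSAA 4D9 minus ATV:ISO ran from -2.52 to 0.782, that of ATV:4D9 minus ATV:ISO from -4.40 to -1.10 and that of ATV:4D9 minus 4D9 from -2.96 to -0.902. Each of these left a pool unbalanced.

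Differences that had not been called changed sign as follows on the log2 scale. For WT ATV:4D9 against ATV:ISO, limma-voom gave Ciita -0.14, and leaving out 1 mouse gave Ciita -0.41 to 0.44 and H2-Aa -0.32 to 0.0051. For AppSAA 4D9 against ATV:ISO without CMO pool 3, the values were 0.0116 (H2-DMb1), 0.14 (H2-Ab1), 0.25 (H2-Aa), 0.20 (H2-Eb1) and 0.19 (Cd74). Leaving out 1 mouse there gave Ciita -0.85 to 0.0915, H2-DMa -0.11 to 0.0595, H2-DMb1 -0.15 to 0.0650, H2-Ab1 -0.40 to 0.26, H2-Aa -0.41 to 0.36, H2-Eb1 -0.49 to 0.31 and Cd74 -0.28 to 0.23. For AppSAA against WT mice given ATV:4D9 it gave H2-DMb1 -0.0813 to 0.122.

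With Spearman correlation, 3 of the 5 genes most like the members were shared, and with the mean of the 3 classical chains, added with the data in view, 0 were. With 4 mice a group, and 2 to 217 Ciita UMIs per mouse, small changes of Ciita and single-mouse effects are not resolved.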
